A study of Mus musculus with 2 samples.

Results

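Protein tyrosine phosphatases remove phosphate from tyrosine residues and so set how long the signal of a tyrosine kinase lasts. The classical enzymes carry a catalytic domain with a reactive cysteine. They come in a receptor-type form, which spans the membrane and often has an adhesion-like extracellular part, and a cytosolic form, which is steered to its substrates by SH2, FERM, Sec14 or proline-rich regions. The small Ptp4a enzymes, also called phosphatases of regenerating liver, are held at membranes by a lipid anchor. In epithelial sheets, receptor-type members sit at cell contacts, where they act on cadherins, catenins and growth factor receptors.

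The genes were taken by name: a probe set, which is a group of short probes for 1 transcript, was included when its single gene symbol in the platform annotation was a Ptpr, Ptpn or Ptp4a gene. This gave 92 of 45101 probe sets, for 36 of the 18193 genes that have a probe set with a single symbol. Of these, 18 genes encode receptor-type enzymes, 16 cytosolic enzymes and 2 Ptp4a enzymes. The family was proposed for description with earlier results of these arrays in view, so its values are given as a description without a test. Ptp4a1 was represented by probe sets shared with another gene and is not among the 36.

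The samples were total RNA of 2 mouse epithelial cell lines, called Mlesico and Mle29c in the labels, with 1 array for each. Both were grown in DMEM with serum, and no treatment is given. The title of the series names miR-29c and fibrosis of the lung, but the labels do not say how the Mle29c line was made, whether it carries more or less miR-29c, or whether a line is 1 clone. Each deposited value is a log signal minus the midpoint of both arrays for that probe set, taken here as log2, so the value of 1 line is the mirror of the other and the level itself was removed. Every ratio below is on the log2 scale and positive where Mle29c was higher, with no replicate check and no p-value.

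For the microRNA named in the title, the mature strand is shown with its family members, because the seed (bases 2 to 8, in capitals) is the part that pairs with target transcripts. All 3 share the same seed, AGCACCA. The sequences are from RefSeq, build GRCm38.p6, with miR-29c-3p at chr1:195037600-195037621 on the plus strand.
mmu-miR-29a-3p: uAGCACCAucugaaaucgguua
mmu-miR-29b-3p: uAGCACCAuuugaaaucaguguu
mmu-miR-29c-3p: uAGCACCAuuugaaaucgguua

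For the phosphatase genes, promoter windows are shown for those with large differences, Ptprm and Ptprg in opposite directions, and for Ptprk, the nearest relative of Ptprm among them. Each is the 250 bases before the start of transcription in RefSeq, build GRCm38.p6, read in the direction of the gene. Capitals mark the GC box GGGCGG, searched on both strands (CCGCCC on the other). The table holds 2 starts for Ptprg, and both are shown. The windows are chr17:67354460-67354709 on the minus strand for Ptprm, chr10:28074570-28074819 on the plus strand for Ptprk, and chr14:11553303-11553552 and chr14:12189693-12189942 on the plus strand for Ptprg.
Ptprm: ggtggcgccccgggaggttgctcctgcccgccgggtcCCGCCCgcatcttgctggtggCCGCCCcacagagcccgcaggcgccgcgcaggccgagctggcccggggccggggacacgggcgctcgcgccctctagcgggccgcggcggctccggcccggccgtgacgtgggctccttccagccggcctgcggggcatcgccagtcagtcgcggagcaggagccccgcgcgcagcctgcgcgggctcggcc
Ptprk: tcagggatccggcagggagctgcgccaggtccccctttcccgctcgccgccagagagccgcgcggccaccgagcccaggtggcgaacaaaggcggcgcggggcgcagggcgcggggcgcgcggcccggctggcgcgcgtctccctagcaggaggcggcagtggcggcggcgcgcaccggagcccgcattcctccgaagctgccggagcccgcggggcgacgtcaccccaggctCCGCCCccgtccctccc
Ptprg, first start: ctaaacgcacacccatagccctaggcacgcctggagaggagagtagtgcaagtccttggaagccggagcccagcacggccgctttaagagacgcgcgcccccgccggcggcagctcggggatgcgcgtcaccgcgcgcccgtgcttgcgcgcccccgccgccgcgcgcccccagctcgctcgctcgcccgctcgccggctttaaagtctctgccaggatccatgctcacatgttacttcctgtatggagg
Ptprg, further start: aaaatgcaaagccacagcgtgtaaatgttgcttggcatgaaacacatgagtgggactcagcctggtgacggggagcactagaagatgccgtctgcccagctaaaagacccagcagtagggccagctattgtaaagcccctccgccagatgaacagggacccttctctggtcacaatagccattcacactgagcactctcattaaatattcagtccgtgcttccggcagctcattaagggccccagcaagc

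The window of Ptprm held 2 GC boxes and 37 CpG dinucleotides, that of Ptprk 1 GC box and 38 CpG, and those of Ptprg no GC box and 31 and 6 CpG. Promoter windows were found for 30 of the 36 genes, 43 windows in all, and Ptprd and Ptprb are among the genes without a match. The median was 12 CpG in 25 windows of 15 receptor-type genes and 18 in 17 windows of 14 cytosolic genes. It was 6 in 32851 windows of all 27025 genes. A gene with several starts counts several times here, and some windows of Ptprr and Ptprc overlap. GGGCGG was present in 44.0% of the receptor-type windows, 58.8% of the cytosolic windows and 32.7% of all. CCAAT, on either strand, was in 8.0% of receptor-type, 35.3% of cytosolic and 33.8% of all windows. TATAAA was in 2 windows of the family, 1 each of Ptprc and Ptpre, and in 12.4% of all windows. TGANTCA was in 1 window, of Ptpre, and in 6.75% of all. None of the 4 motifs contains another, all were searched on both strands, and a match describes the sequence only.

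Because weak signals vary widely, a level class was read from the rounding of the deposited numbers, since single-precision numbers are stored in coarser steps when the logarithm before centring is larger. Probe sets with a mean log2 level of at least 8 form the high class, those from 4 up to 8 the middle class, and weaker ones the low class. The class is better determined where both values of a probe set fail to cancel exactly (class from the sum). Elsewhere it rests on the finest step of either value, which can place a probe set too high. Where the lines differ greatly, the finer step of the weaker line can also place a probe set too low, so the class is not independent of the ratio. A gene was measured when at least 1 probe set was high or middle, and its value is the median over those probe sets. This held for 33 of the 36 phosphatase genes. The unmeasured genes were Ptprc, Ptpn20 and Ptpn22.

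The largest differences lay in receptor-type genes that contact other cells or the matrix. Ptprm was 16.8-fold higher in Mle29c, Ptprd 15.8-fold lower and Ptprg 12.6-fold lower. The Ptprd value is that of its measured probe sets: 4 of its 7 probe sets lay above 0, and with all 7 kept the median turned to 0.24. Of 33 measured phosphatase genes, Ptprm, Ptprn, Ptprr and Ptprk (4 genes) exceeded 2-fold in favour of Mle29c, and Ptprd, Ptprg and Ptprb (3 genes) in favour of Mlesico. Among all 14809 measured genes 8.42% were at least 2-fold higher and 7.2% at least 2-fold lower, 15.6% in either direction. The 7 genes make 21.2% of the family, which is not far from that background.

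**Figure D1:**
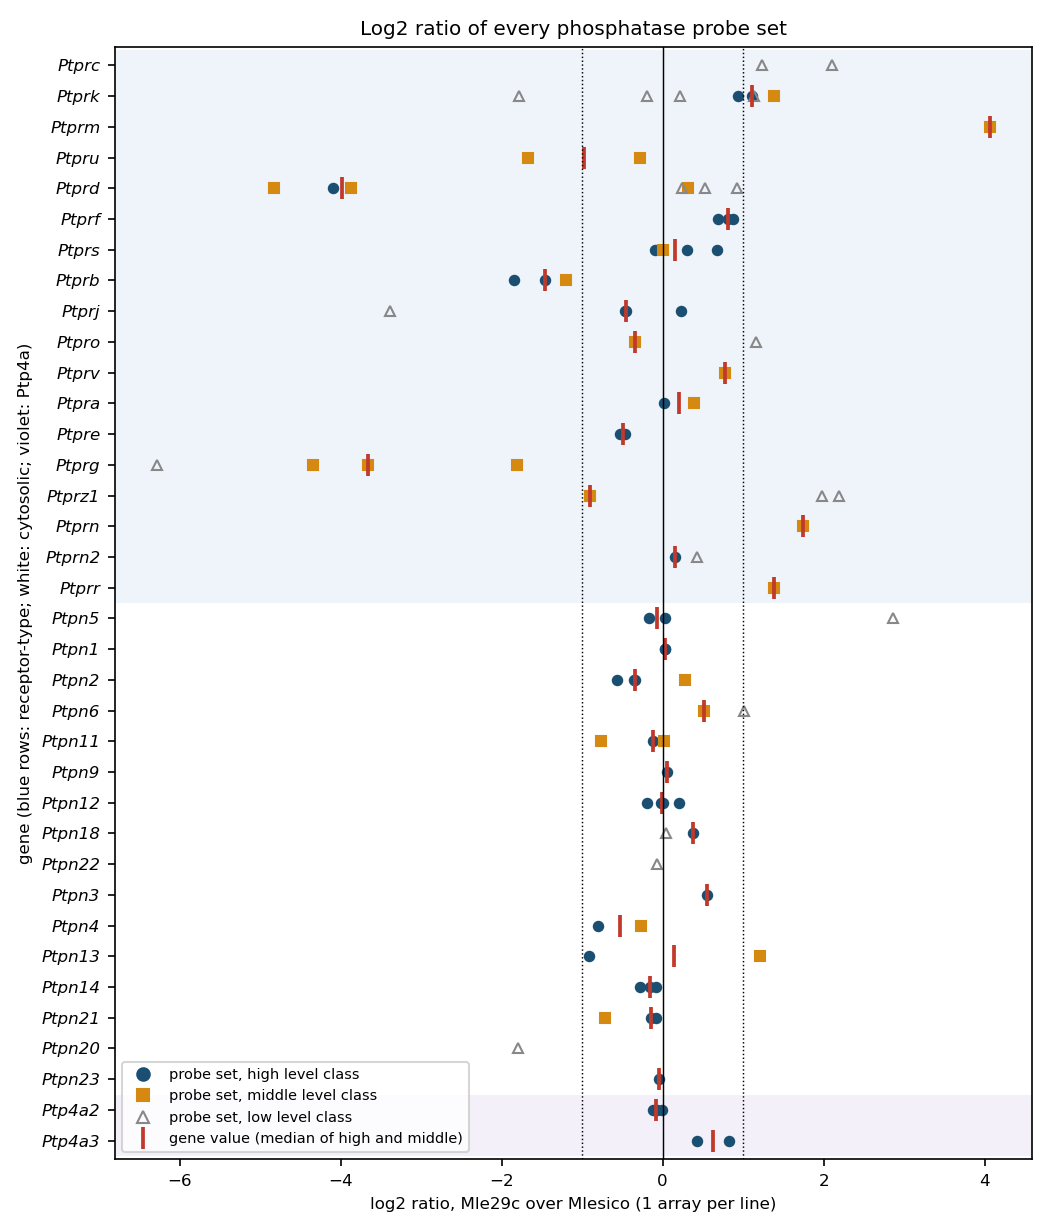
Log2 ratio (x axis, Mle29c over Mlesico) of all 92 probe sets, by gene (y axis), with the level class as the symbol, the gene value as a red bar and dotted lines at 2-fold. Receptor-type genes reach from -3.98 for Ptprd to 4.07 for Ptprm, and the cytosolic gene values all lie between the dotted lines.

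The forms differed in their spread. All 7 genes past 2-fold were among the 17 measured receptor-type genes (41.2%), and none of 14 cytosolic or 2 Ptp4a genes was. The median size of the log2 ratio, without its sign, was 0.90 for receptor-type genes, 0.14 for cytosolic genes and 0.36 for all measured genes. The signed medians were close to 0, at 0.15 for receptor-type genes, -0.03 for cytosolic genes and 0.01 for all. Receptor-type gene values ran from -3.98 to 4.07 and cytosolic values from -0.54 for Ptpn4 to 0.55 for Ptpn3.

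**Figure D2:**
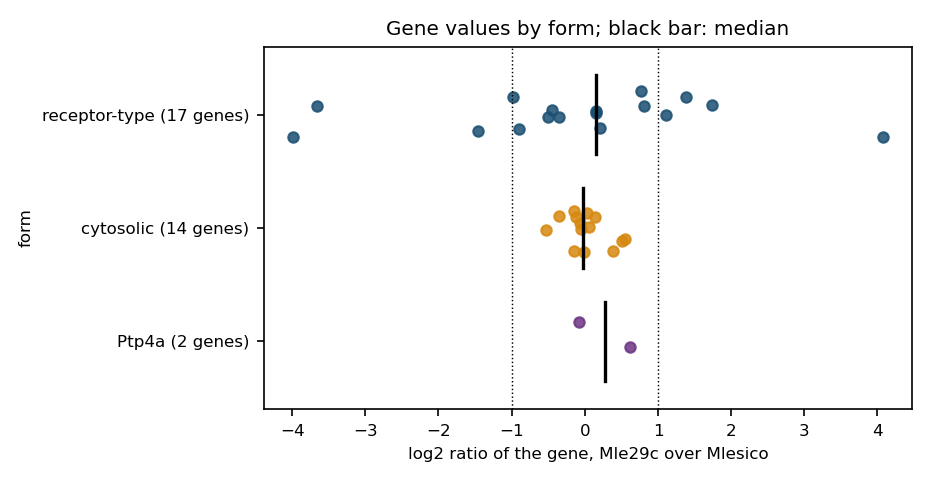
Log2 ratio of each measured gene (points; x axis) by form (y axis), with the median as a black bar and dotted lines at 2-fold; points are shifted up and down only to keep them apart. The 17 receptor-type genes spread to both sides with a median of 0.15, while the 14 cytosolic genes stay within 2-fold around -0.03.

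The level of the signal differed between the forms as well. Of the receptor-type probe sets 35.3% were in the high class, against 65.7% of the cytosolic ones and 47.8% of all single-gene probe sets. Of all receptor-type probe sets 23.5% were high from the step, the weaker basis, against 51.4% of all cytosolic ones. High from the sum were 11.8% and 14.3%. These shares also depend on how many probe sets of each form were classed on each basis. They therefore do not show from which basis the gap came. In the high class 4 of 18 receptor-type probe sets were past 2-fold (22.2%), none of 23 cytosolic ones, and 10.5% of all. In the middle class it was 11 of 18 receptor-type (61.1%), 1 of 7 cytosolic (14.3%) and 22.9% of all. Low-class probe sets differed widely in both forms, with 9 of 15 and 3 of 5 past 2-fold, and 57.9% of all. Over high-class probe sets alone, 3 of 9 receptor-type genes and none of 13 cytosolic genes were past 2-fold, against 11.7% of 10546 genes. The part of the level in the difference between forms was not tested.

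Receptor-type enzymes with a MAM domain, which bind the same protein on the neighbouring cell, were led by Ptprm. Its single probe set had a deposited value of -2.03 in Mlesico and 2.03 in Mle29c, a log2 ratio of 4.07. The probe set was in the middle class from the sum. If that class is right, the log2 level lay between 1.97 and 5.97 in Mlesico and between 6.03 and 10.03 in Mle29c, so the Mlesico signal may have been near the bottom of the scale and the size of the ratio is not firm.

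Ptprk, a MAM-domain enzyme that acts on beta-catenin and the EGF receptor, had 7 probe sets. The 2 in the high class, both from the sum, had deposited values of -0.56 and -0.47 in Mlesico and 0.56 and 0.47 in Mle29c. Their log2 ratios of 1.11 and 0.93 lay just past and just short of 2-fold, and the middle-class probe set was at 1.39. All 3 were higher in Mle29c, with an SD of 0.23 between them, and the gene value was 1.11 (2.16-fold). Its 4 low-class probe sets scattered from -1.78 to 1.14, and with every probe set kept the gene median was 0.93, short of 2-fold.

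Ptpru, of the same group, was just short of 2-fold at -0.98, but its 2 middle-class probe sets differed, at -1.67 and -0.28. The group thus held 2 genes higher in Mle29c and 1 with a negative value within 2-fold.

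The LAR group (Ptprd, Ptprf and Ptprs), whose members organise cell and synaptic contacts through liprin scaffolds, did not move together over measured probe sets. Ptprd had 7 probe sets in clearly separate ranges. In 3 of them the Mlesico values were 2.41, 2.05 and 1.93 and the Mle29c values the same below 0, giving log2 ratios of -4.82, -4.10 and -3.87. The other 4 lay between 0.24 and 0.93, 1 of them in the middle class at 0.31 and 3 in the low class. The gene value over the 4 measured probe sets was -3.98, with an SD of 2.32 between them.

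The value rests on leaving out the low class, and as a mean of the measured probe sets it was -3.12. For the 2 strongly lower probe sets with a middle class from the sum, the class would put the Mle29c log2 level between 1.59 and 5.59 and between 2.07 and 6.07. The corresponding Mlesico ranges were 6.41 to 10.41 and 5.93 to 9.93. The probe set at -4.10 was high from the step alone, which gives no firm bound.

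**Figure D3:**
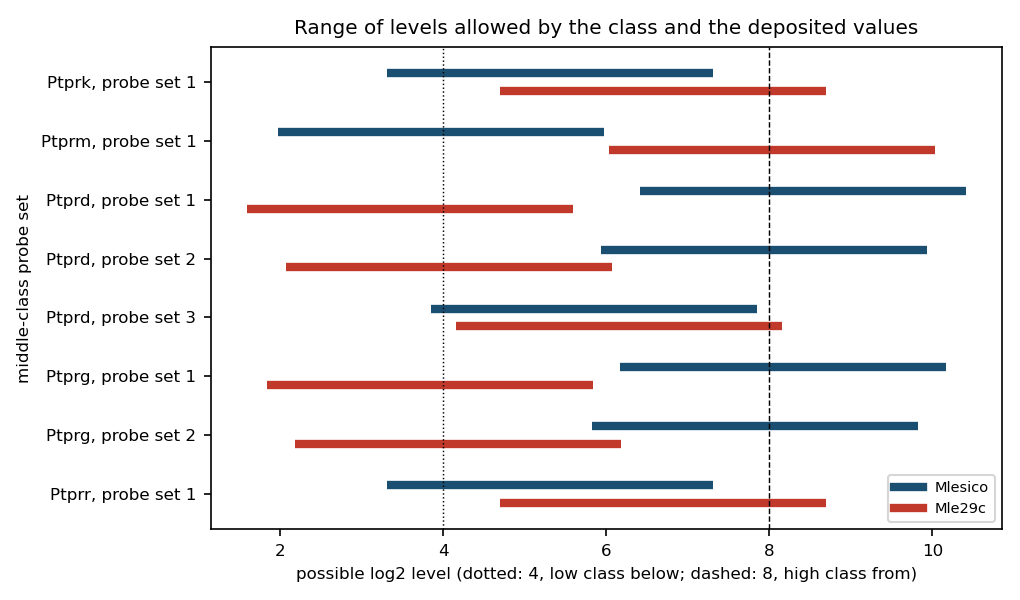
Range of log2 levels (x axis) that the class and the deposited values allow for each line (blue Mlesico, red Mle29c), for the middle-class probe sets of genes past 2-fold whose class came from the sum (y axis). For Ptprm the Mlesico range starts at 1.97, and for the lower probe sets of Ptprd and Ptprg the Mle29c ranges start between 1.59 and 2.17, below the limit of the low class at 4.

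Ptprf, which encodes LAR itself, was higher by less than 2-fold in all 3 high-class probe sets, with deposited Mle29c values of 0.35, 0.41 and 0.43. Their log2 ratios were 0.69, 0.81 and 0.87, and the SD of 0.09 was small beside the gene value of 0.81 (1.76-fold). Ptprs was near 0 with a gene value of 0.16 and probe sets from -0.10 to 0.67. Over measured probe sets, Ptprf and Ptprd thus stood on opposite sides of 0. With every probe set kept, Ptprd was at 0.24, on the same side as Ptprf.

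In the group with fibronectin repeats, Ptprb, known as the vascular endothelial phosphatase, was the lower gene. Its 3 probe sets had Mlesico values of 0.92, 0.73 and 0.60 and log2 ratios of -1.84, -1.46 and -1.20, all past 2-fold on the same side. The first was in the high class from the sum, and the gene value was -1.46 (2.75-fold lower, SD 0.32 between probe sets). Tek, the endothelial receptor kinase that is a known substrate of this enzyme, stood at -1.57 in 1 high-class probe set.

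A list of 12 endothelial markers, which includes Tek, had 1 gene at least 2-fold higher (Vwf, 1.40) and 1 lower (Tek) of 8 measured, with a median of 0.03. Pecam1, Tie1, Emcn and Erg had only low-class probe sets, and 3 markers had a high-class one, none from the sum. The part of other cells in the Ptprb value was not tested.

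Ptprj, a growth-restraining enzyme of epithelia, was at -0.45, with high-class probe sets at -0.47, -0.45 and 0.22 and a low-class one at -3.39. Ptpro was at -0.35 in its middle-class probe set and 1.16 in a low-class one, so that keeping both turned the gene median to 0.41. Ptprv was at 0.77 from 1 probe set. None of these reached 2-fold.

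Ptprg and Ptprz1 share a carbonic anhydrase-like domain outside the cell, with which they bind contactins. All 4 probe sets of Ptprg were lower in Mle29c. The Mlesico values of its 3 middle-class probe sets were 2.17, 1.83 and 0.91, the log2 ratios -4.34, -3.65 and -1.81, and a low-class probe set stood at -6.28. The gene value was -3.65 (12.6-fold lower, SD 1.31), and -2.73 when the probe set that is marked as shared between transcripts was left out.

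Here too the Mle29c level may have been near the bottom. The ranges the class allows started at 1.83 and 2.17 for the 2 probe sets classed from the sum, so the direction is shared by every probe set but the size is not firm. Ptprz1, a phosphatase of the nervous system, was at -0.90 in its middle-class probe set and at 1.98 and 2.19 in 2 low-class ones, and its direction thus depends on the floor.

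Among the remaining receptor-type genes, Ptprn, a catalytically inactive protein of secretory granules, was higher in its only probe set, with -0.87 in Mlesico and 0.87 in Mle29c (log2 ratio 1.74, middle class from the step). Its relative Ptprn2 was at 0.15. Of 12 neuroendocrine markers 6 were measured, with Uchl1 at 6.05 and Snap25 at -1.58, and 5 of the 6 were below 0, at a median of -0.61. The granule gene Chga, at -0.19, and Chgb, at -0.88, were among those below 0. Scg2, Scg3, Insm1 and Pcsk1 had only low-class probe sets, with medians above 0 (2.66, 2.21, 1.05 and 0.44), and give no measured difference.

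Ptprr, which binds MAP kinases through a kinase interaction motif, was at 1.38 from 1 middle-class probe set with 0.69 in Mle29c. Ptpn5, a cytosolic enzyme with the same motif, was at -0.07 over 2 high-class probe sets, while a low-class one stood at 2.86. Ptpra and Ptpre, which have short extracellular parts and act on Src kinases, were at 0.21 and -0.50. Both high-class probe sets of Ptpre were lower, at -0.46 and -0.53.

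Ptprc, which encodes the leukocyte phosphatase CD45, had 2 probe sets, both in the low class from the sum, at 2.11 and 1.24. With a mean log2 level under 4, neither gives a measured difference. In a list of 12 leukocyte markers, 10 were measured, 7 of them below 0, with a median of -0.24. In this list 1 gene had a high-class probe set (Cd53). Of those measured, 1 was at least 2-fold higher (Laptm5, 1.02, probe sets from -1.60 to 2.06) and 1 lower (Cd52, -1.79). The labelled epithelial origin was checked in the same way: of 11 epithelial markers on the array 9 were measured, with Krt8, Krt19 and Elf3 in the high class, Cdh1 in the middle class, and Cldn4 and Ocln only in the low class. The epithelial list had 1 gene at least 2-fold higher (Cdh1, 1.46) and 1 lower (Esrp1, an epithelial splicing regulator, -4.51 in 1 middle-class probe set), with 6 of 9 below 0 and a median of -0.09. All 11 alveolar type 2 markers with probe sets were measured, 8 of them in the high class, and 5 were past 2-fold, all higher in Mle29c (list median 0.73). Of 12 mesenchymal markers 9 were measured, 1 higher (Col3a1, 1.55) and 1 lower (Col1a1, -3.41), at a median of 0.11, while Pdgfrb, Fap and Tagln had only low-class probe sets. The part of these differences between the lines in the phosphatase values was not tested.

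Cytosolic enzymes stayed close to 0. Ptpn1, which encodes PTP1B, a brake on insulin and leptin signalling, was at 0.03 in both high-class probe sets. Ptpn2, its relative that acts on JAK and STAT proteins, was at -0.35, with 3 high-class probe sets from -0.57 to -0.35 and a middle-class one at 0.27. Ptpn11, which encodes SHP-2, a promoter of Ras signalling, was at -0.12 with probe sets from -0.76 to 0.01. Ptpn6, which encodes the related SHP-1, was at 0.51 in its middle-class probe set and 1.01 in a low-class one.

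Of the proline-rich group, Ptpn12, an enzyme that acts on adhesion proteins such as p130Cas, was at -0.01 with all 4 high-class probe sets between -0.19 and 0.20. Ptpn18 was at 0.38. The enzymes with a FERM domain, which ties them to the membrane skeleton, ranged from -0.54 for Ptpn4 to 0.55 for Ptpn3. Ptpn14 and Ptpn21, regulators of the Hippo pathway, were at -0.15 and -0.14. Probe sets of Ptpn21 ran from -0.72, in the middle class from the sum, to -0.08 in the high class. Those of Ptpn4 were at -0.80 in the high class and -0.27 in the middle class. Ptpn9 and Ptpn23, which act in vesicle traffic, were at 0.06 and -0.05.

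Ptpn13, a large scaffold-like phosphatase, showed the widest disagreement between measured probe sets among cytosolic genes. Its middle-class probe set had a log2 ratio of 1.21 and its high-class one -0.92, so the gene value of 0.15 describes neither. With the class taken from the sum alone its value was 1.21, and it was then the only cytosolic gene past 2-fold.

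The Ptp4a enzymes were measured in high-class probe sets only. Ptp4a2 had Mlesico values from 0.01 to 0.06 in 4 probe sets and log2 ratios between -0.12 and -0.01. Ptp4a3 was at 0.62, with 0.43 and 0.82 in its 2 probe sets. Its chromosome, 15, had a median log2 ratio of 0.36 over 581 measured genes. The 3 measured genes on chromosome 6, Ptpro (-0.35), Ptprz1 (-0.90) and Ptpn6 (0.51), lie on a chromosome with a median of 0.32. Centred within chromosomes, Ptp4a3 was at 0.27, Ptpro at -0.67, Ptprz1 at -1.22 and Ptpn6 at 0.19. The part of the chromosome in these values was not tested.

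Probe sets of a gene agreed unevenly. Of 21 phosphatase genes with 2 or more measured probe sets, 13 had no sign change among them (61.9%), against 56.3% of 6886 genes. This held for 7 of 10 receptor-type and 4 of 9 cytosolic genes. The SD between probe sets of a gene, pooled over genes, was 1.07 for receptor-type, 0.47 for cytosolic and 0.62 for all genes on the log2 scale. The receptor-type value rests on Ptprd, without which it was 0.58. The median distance from the lowest to the highest probe set of a gene was 0.67, 0.53 and 0.52. In 2 genes, Ptprb and Ptprg, every measured probe set was past 2-fold in the same direction, as in 3.35% of the 6886. The SD is a spread between probe sets within the arrays and leaves out differences between cultures. It was not split into array error and differences between transcripts of a gene.

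Partners of these enzymes were read from lists chosen by function. Of 43 measured tyrosine kinases and docking proteins, the main substrates, 1 was at least 2-fold higher and 5 lower (14.0% in either direction), with a median of -0.08. Fgfr2, an FGF receptor of lung epithelium, was at 2.17 with probe sets from 0.05 to 2.89. Met, the receptor of hepatocyte growth factor, was at -2.29 from 1 middle-class probe set. Pag1, an anchor for the Src-restraining kinase Csk, was at -2.24, with probe sets at -3.57 and -0.92.

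Of 30 measured ligands and scaffolds of receptor-type enzymes, 2 were past 2-fold in the higher direction and 5 in the lower (23.3%), around a median of 0.05. Gpc4, a glypican that binds LAR-type receptors, was at -3.00, with both high-class probe sets between -3.10 and -2.91. The heparan sulfate proteoglycan gene Sdc2 was at -1.58, with probe sets from -2.28 to -0.55. The matrix protein gene Thbs1 was at -1.25, with probe sets at -1.72 and -0.78. Cdh1, which encodes E-cadherin, was at 1.46 from 1 middle-class probe set. The junction scaffold gene Magi1 was at 1.43 over 5 probe sets, which ran from 0.08 to 1.48. Of 31 other phosphatases and relatives, 1 was lower (3.23%), the myotubularin gene Mtmr7 at -2.41, and 30 were within 2-fold. This list is mixed: it also holds the Eya enzymes, which use an aspartate, and Styx, which lacks the catalytic cysteine. None of these lists was tested against other genes, and their shares stand beside 15.6% of all measured genes.

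**Figure D4:**
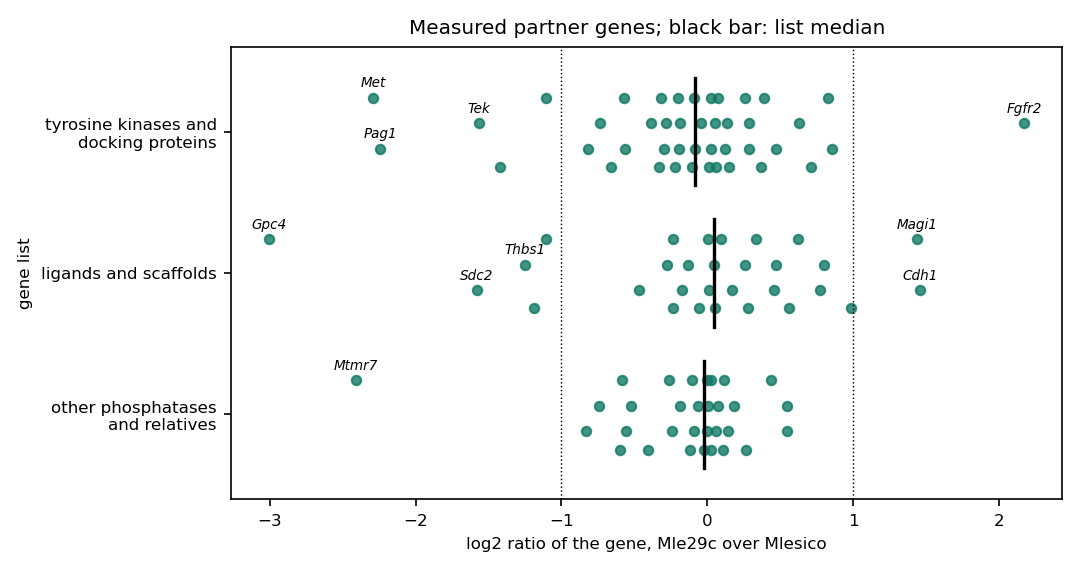
Log2 ratio (x axis, Mle29c over Mlesico) of each measured gene in 3 lists of partners and related enzymes (y axis), with the list median as a black bar and dotted lines at 2-fold; up to 3 genes past 2-fold on each side are named, and vertical position within a list only separates the points. The medians lie at -0.08, 0.05 and -0.02, and Gpc4 at -3.00 is the lowest point.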

How the data were processed

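RNA of 2 lines was hybridised to 1 oligonucleotide array each. Per the submitters' processing notes, signals came from MAS5, an algorithm that combines the probes for a transcript; no version is named. The values deposited by the authors, read here as log2, had been centred for each probe set, since both values sum to 0 within 1e-06. The log base is not stated, and a natural log would enlarge every fold. Genes were named by the platform annotation of 2016, and 932 probe sets with several genes were left out. Level classes (19411 high, 14365 middle, 11041 low and 284 unclassed probe sets) came from floating-point rounding; among all single-gene probe sets, 5.4% of those called high from the sum and 13.6% of those called high from the step were past 2-fold. Centring on chromosomes used the GRCm38.p6 gene table. Members, lists and the naming rule were chosen with earlier results of these data known. The rule names every member, and of each partner list up to 3 genes past 2-fold on each side; markers were named where a member's value stood beside them. Analyses ran in Python 3.11.15 with pandas 2.3.3 and numpy 2.4.6, and the counting was tested on simulated data. With 1 array per line, the number of arrays limits the precision.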

Additional observations from a re-analysis of the deposited data

How the results depend on the processing

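No paired analysis was possible because each line has 1 array. With every probe set kept, the receptor-type median was 0.35, and 5 genes were higher and 3 lower, 8 of 36, against 23.3% of all genes. Ptprd turned to 0.24 and Ptprk, at 0.93, was no longer past 2-fold. Ptprc (1.67), Ptprz1 (1.98) and Ptpn20 (-1.80) entered the count instead. In the high class alone 1 gene was at least 2-fold higher and 2 lower, 3 of 24, against 11.7% of all genes. At 1.5-fold, 7 genes were higher and 5 lower, 12 of 33, against 31.8%. At 4-fold, 1 was higher and 2 lower, 3 of 33, against 4.98%. Read as natural logs, 6 genes were higher and 5 lower, 11 of 33, against 26.0%. The setting with the class from the sum alone was chosen after the data were seen. With it, 4 genes were higher and 3 lower, 7 of 21, against 1174 of 9059 genes. These were 6 of 11 receptor-type and 1 of 9 cytosolic genes. Of 8 genes with 2 or more such probe sets, 6 had them on 1 side of 0, with no share of all genes to compare. Another threshold, scale or fewer probe sets enter these by construction; the cause was not tested otherwise. Using means, dropping shared probe sets, centring within chromosomes and updating symbols kept the counts within 1.5 times. Neither the receptor-type nor the cytosolic median moved by more than a set limit, except the receptor-type median with every probe set kept, at 0.35. This limit was 0.62, the SD between probe sets over all genes, divided by the root of the number of genes in the median. No cytosolic gene passed 2-fold under these settings, apart from Ptpn20 (-1.80) with every probe set kept and Ptpn13 (1.21) with the class from the sum.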

Other observations

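Ptp4a1, which encodes the first of the regenerating liver phosphatases, shares its 4 probe sets with the predicted gene Gm13363. All 4 were in the high class, with log2 ratios of -0.51, -0.36, 0.26 and 0.64, so they lay within 2-fold on both sides of 0 and give no single value for the gene.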
